A study of Homo sapiens with 11 samples.

Results

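The replication-dependent histone genes encode the core histones H2A, H2B, H3 and H4 and the linker histone H1 that package newly made DNA. They were taken from the gene table as the protein-coding entries whose names begin with HIST1H, HIST2H, HIST3H or HIST4H, which gave 71 of the 57773 genes listed. By class, 6 encode H1, 17 encode H2A, 18 encode H2B, 15 encode H3 and 15 encode H4. By cluster, 55 belong to HIST1 on chromosome 6, 12 to HIST2 and 3 to HIST3 on chromosome 1, and 1 to HIST4 on chromosome 12. A further 18 entries with the same prefixes are of other gene types and were not counted as members.

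Cells transcribe these genes mainly in S phase, when DNA is copied, and stop when replication stops. Their mRNAs end in a stem-loop bound by SLBP and cut with the help of the U7 snRNP, and they carry no poly(A) tail, so libraries made from total RNA capture them where poly(A) selection would not. NPAT gathers at the histone clusters and drives their transcription. Most members have no introns, whereas U2AF1 is the splicing factor that recognizes the AG at the end of an intron.

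RNA was sequenced from HCC78, a lung adenocarcinoma line that itself carries the U2AF1 S34F mutation. The WT and S34F lines are stable subclones of HCC78 transduced with a lentiviral, doxycycline-inducible U2AF1 tagged with FLAG and 6xHA, either wild-type (WT) or S34F. The 9 libraries were 2 of WT with doxycycline (WT dox+), 2 of S34F with doxycycline (S34F dox+), 2 of WT without it (WT dox-), 1 of S34F without it (S34F dox-, labelled replicate 2) and 2 of parental HCC78. The sample labels give parental cells as without doxycycline, while a supplement of the study gives them as with it, and the labels were followed. Nothing in the labels says that replicates were separate cultures, so every p-value measures the spread between these libraries, which may be technical.

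Levels are FPKM, fragments scaled to the length of the transcript and to the fragments mapped in the library, so genes of different length can be compared, but the number of reads behind a value is unknown. U2AF1 lay between 103 and 115 FPKM without induction, reached 278 and 299 FPKM in the WT dox+ replicates and 164 and 223 FPKM in those of S34F dox+. The labels put S34F at 62% and 65% of U2AF1 mRNA in S34F dox+ and at 12% and 14% in WT dox+. At least 1 FPKM was reached by 15736 to 20896 genes in the 4 dox+ libraries, most in S34F dox+ replicate 2, and by 13661 to 14688 genes in the other 5. Among markers of the line, KRT7 was between 2873 and 4196 FPKM and NKX2-1 between 49.1 and 67.8 FPKM, the surfactant gene SFTPB was at most 2.05 FPKM, HBB was listed at 0 in all 9, and fibroblast, blood and endothelial markers were low, led by COL1A1 at 2.83 to 7.0 FPKM.

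Short sequence elements set classes of histone promoters apart, and the windows below are shown because they are shared by the genes whose levels are compared later. All 71 members matched a current symbol, and 66 had an entry in a table of RefSeq promoters on GRCh38.p14, each running from 250 bases before to 50 after the start. The letters searched, on both strands, were TATAAA (the TATA box), CCAAT (the CCAAT box), ATTTGCAT (the octamer) and AAACACA (the H1 box). The ends of the first and the last of these can overlap. The letters of the H1 box were in 6 of 6 H1 promoters (100%), in 9 of the 66 member promoters (13.6%) and in 5.76% of all 27305 promoters in the table. The last match in the window lay on the gene's strand, 105 to 119 bases before the start, in all H1 promoters but that of HIST1H1A. There it lay on the other strand, 183 bases before the start. In HIST2H2AC, HIST2H3A and HIST2H3C it lay on the other strand, 31 to 35 bases after the start. Below, the H1 box is in capitals in 3 of the most abundant linker histone genes, at chr6:27867687-27867716 on the minus strand, chr6:26056571-26056600 on the minus strand and chr6:26156201-26156230 on the plus strand, in that order.
HIST1H1B: tgaggactaacAAACACAatttgggagtcc
HIST1H1C: tgaggtggaacAAACACAacttgggagcag
HIST1H1E: tgaggtgtaacAAACACAactcgggatccg

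The octamer was in 14 of 18 H2B promoters (77.8%) and 11 of 16 H2A promoters (68.8%), but in 0 of 6 H1 and 0 of 13 H4 promoters, against 1.80% of all promoters. The 1 H3 promoter of 13 that held it is that of HIST1H3D, whose entry in the table covers the same bases as that of its neighbour HIST1H2AD. Many H2A and H2B genes lie head to head, so 1 octamer falls in the windows of both and reads as ATTTGCAT towards one gene and as ATGCAAAT towards the other. The first pair of lines below gives chr6:27814963-27814992 and the second chr1:149886710-149886739, each read once on the strand of either gene, with the octamer in capitals.
HIST1H2BM: ttctactcctaATTTGCATaataacattta
HIST1H2AJ: taaatgttattATGCAAATtaggagtagaa
HIST2H2BE: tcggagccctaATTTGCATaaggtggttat
HIST2H2AC: ataaccaccttATGCAAATtagggctccga

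CCAAT was in every H1, H2A, H2B and H3 promoter of the table and in 3 of 13 H4 promoters (23.1%), against 35.7% of all promoters. TATAAA was in 44 of the 66 member promoters (66.7%), against 12.0% of all. Not every match need be a TATA box of that gene. In HIST1H2AE it was on the other strand, 206 bases before the start, and in HIST4H4 it was 250 bases before the start. HIST3H2A and its head-to-head neighbour HIST3H2BB, whose levels are given in detail below, had CCAAT but neither TATAAA nor the octamer in their windows. One CCAAT of each is given here in capitals, at chr1:228457922-228457951 on the minus strand and chr1:228458015-228458044 on the plus strand.
HIST3H2A: taccatagccatCCAATcgaacgccgcggt
HIST3H2BB: acaacgtttgatCCAATcagaagtgagcaa

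Most members were expressed at high levels. By their mean over the 9 libraries, 45 of the 71 members reached 100 FPKM or more, 15 lay between 10 and 100 FPKM, 3 between 1 and 10 FPKM, and 8 below 1 FPKM. The median over the 63 members that passed a minimum mean of 1 FPKM was 242 FPKM, against 10.5 FPKM over all 15179 genes that passed it. The 8 that did not pass were HIST1H1T, HIST1H2AA, HIST1H2BA, HIST1H2BB, HIST3H3, HIST1H4F, HIST1H4I and HIST1H4G. HIST1H1T, HIST1H2AA, HIST1H2BA and HIST3H3 are known for expression in testis, and HIST1H4G was listed at 0 in all 9 libraries.

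**Figure D1:**
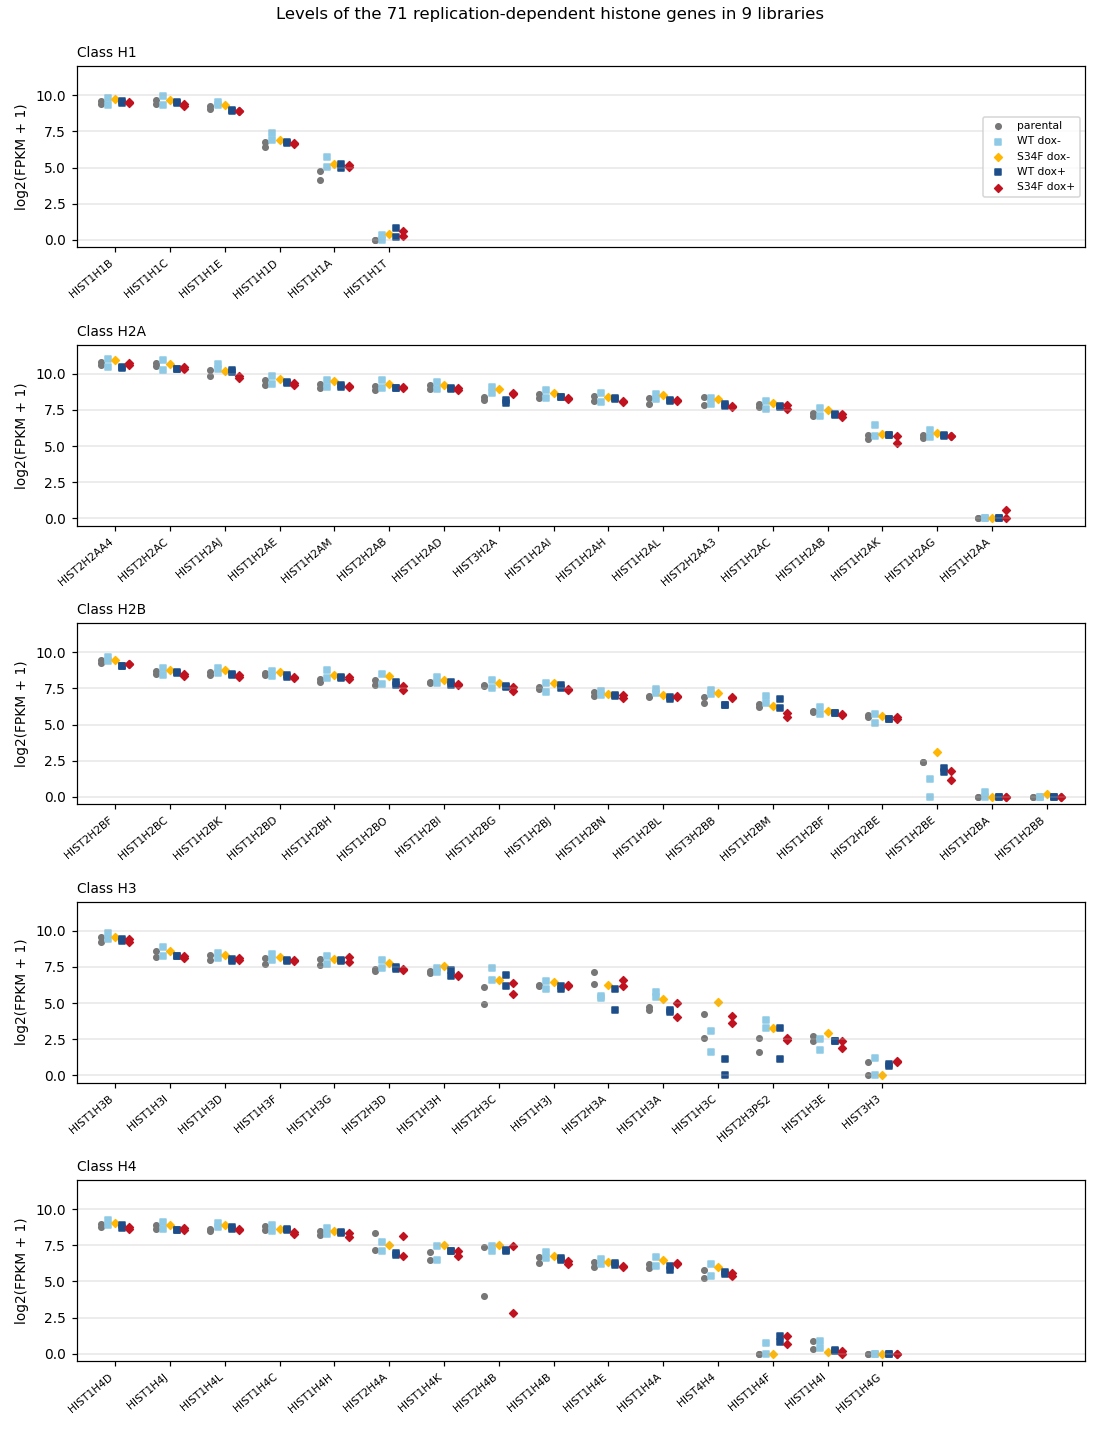
Level of each of the 71 replication-dependent histone genes, 1 panel per histone class, as log2(FPKM + 1) with 1 point per library coloured by group. Most points of a gene lie close together, while those of HIST2H4B, between 6.23 and 186 FPKM, and of HIST1H3C, between 0 and 33.4 FPKM, spread widely, and 8 genes sit near 0.

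Linker histones were led by HIST1H1B, HIST1H1C and HIST1H1E, the somatic variants that bind DNA between nucleosomes, at means of 756, 741 and 567 FPKM. HIST1H1D followed at 112 FPKM and HIST1H1A at 33.1 FPKM. HIST1H1A was at 16.6 and 25.6 FPKM in parental cells and between 30.7 and 52.5 FPKM in the other 7 libraries, so parental cells did not overlap with the transduced lines.

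H2A, which pairs with H2B on the nucleosome surface, was the most abundant class and made up 43.4% to 45.3% of the summed FPKM of all members. HIST2H2AA4, HIST2H2AC and HIST1H2AJ were the most abundant members of all, with means of 1658, 1482 and 1137 FPKM, followed by HIST1H2AE at 706 and HIST1H2AM at 605 FPKM. HIST2H2AA4 has a duplicate, HIST2H2AA3, listed at 257 FPKM, and RSEM may divide reads between such copies.

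H2B took 17.0% to 18.5% of the sum. Its leading member was HIST2H2BF at 634 FPKM, then HIST1H2BC at 386, HIST1H2BK at 376, HIST1H2BD at 344 and HIST1H2BH at 313 FPKM. H3, whose tail carries many of the best known histone marks, took 11.7% to 12.6%. HIST1H3B led it at 703 FPKM, more than 2 times the next gene HIST1H3I at 337 FPKM, followed by HIST1H3D at 281, HIST1H3F at 261 and HIST1H3G at 248 FPKM.

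H4 took 13.9% to 14.6%, led by HIST1H4D at 474 FPKM, HIST1H4J at 423, HIST1H4L at 421, HIST1H4C at 390 and HIST1H4H at 333 FPKM. The gene outside the main clusters, HIST4H4, had a mean of 50.2 FPKM and ranged from 36.6 in parental replicate 1 to 74.5 in WT dox- replicate 2. Shares of the classes thus varied by less than 2 percentage points between libraries, whatever the group. H1 took 11.0% to 11.5%.

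Most members were high or low in the same libraries. Between replicates this held in WT dox- and parental cells, less so in WT dox+ and not in S34F dox+. Their summed FPKM was 17746 and 21003 in parental cells, 18462 and 25683 in WT dox-, 22293 in S34F dox-, 17808 and 18599 in the WT dox+ replicates, and 18113 and 17508 in those of S34F dox+. All 4 dox+ libraries and the first replicates of parental and WT dox- lay close together, and the second WT dox- replicate was the highest. WT dox- replicate 2 was 1.39 times replicate 1, and 62 of the 63 tested members were higher in it. Of the same 63, 55 were higher in the second parental replicate, 43 in the second WT dox+ replicate and 29 in the second S34F dox+ replicate. The share over all genes was not set beside these counts. A shift of the whole library and one of the histone genes therefore cannot be told apart here.

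**Figure D2:**
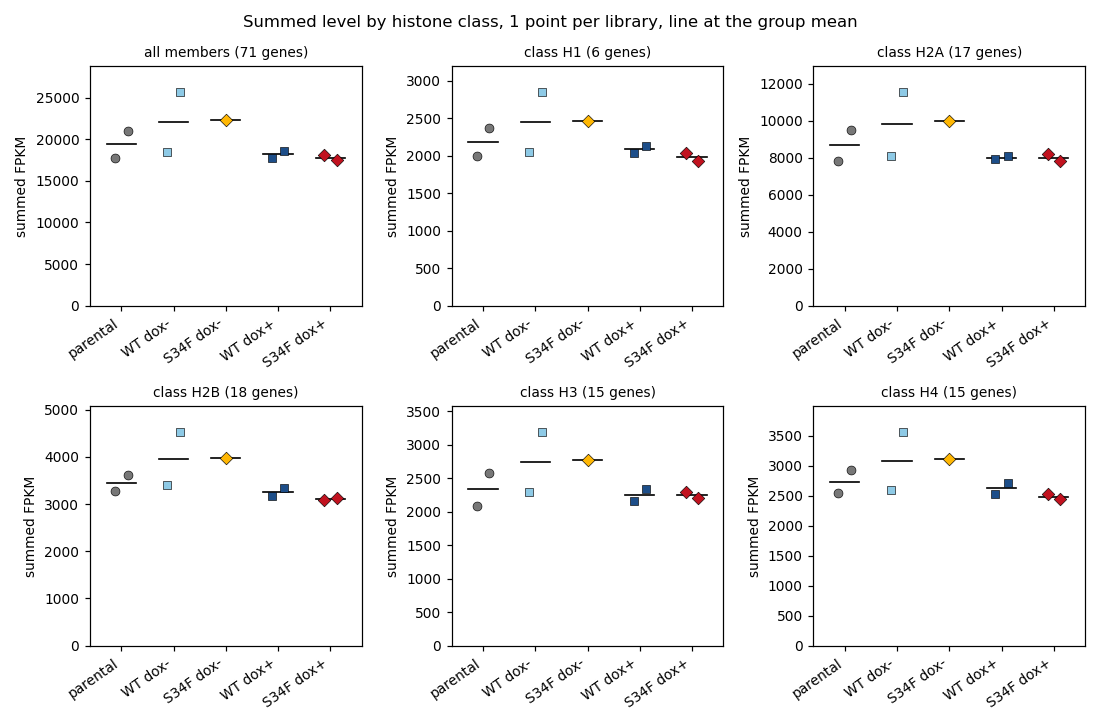
Summed FPKM over all members and over each class on the vertical axis, 1 point per library by group, with a line at the group mean. In every panel the dox+ libraries lie close together and the 2 WT dox- replicates lie far apart, 18462 and 25683 for all members.

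By the median over genes, a gene's share of the sum varied less than its level. Among the 59 members with a mean of at least 20 FPKM, the median SD over the 9 libraries was 0.21 on the log2(FPKM) scale, and 0.11 for each gene's share of the summed FPKM. On the log2(FPKM + 1) scale, the median SD was 0.21 over these members and 0.18 over all 5187 genes at that level.

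Many H2A and H2B genes share a promoter region head to head. In 10 H2A and H2B pairs above 1 FPKM, the RefSeq starts lie 194 to 248 bases apart. The H2A to H2B ratio of FPKM differed widely between pairs, from 0.246 at the lowest for HIST1H2AG over HIST1H2BJ to 37.4 at the highest for HIST2H2AC over HIST2H2BE. Within a pair it varied by 1.18 to 1.97 times over the 9 libraries, least for HIST1H2AC over HIST1H2BC, between 0.533 and 0.628, and most for HIST1H2AK over HIST1H2BN. HIST3H2A over HIST3H2BB was between 2.54 and 3.68.

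Of 3 copy pairs in the duplicated HIST2 block, 2 were split differently from library to library. HIST2H4A and HIST2H4B, which lie in the duplicated stretch and encode the same H4, summed to 248 to 389 FPKM, yet HIST2H4A took between 37.8% and 97.9% of the sum. HIST2H4B was at 15.3 FPKM in parental replicate 2 and 6.23 FPKM in S34F dox+ replicate 1, and between 136 and 186 FPKM in the other 7 libraries. The low libraries belong to different groups, and in both HIST2H4A was high, at 325 and 286 FPKM. The SD on the log2(FPKM + 1) scale was 1.74 for HIST2H4B and 0.22 for the sum. HIST2H3A and HIST2H3C likewise summed to 134 to 209 FPKM, with HIST2H3A at 15.7% to 82.0% of the sum. The split of HIST2H2AA3 and HIST2H2AA4 was steadier, with HIST2H2AA3 at 11.0% to 15.4% of a sum of 1616 to 2408 FPKM. Reads that match both copies alike cannot be assigned to either, so values and calls of a single copy are uncertain, also where they enter the counts below. The share of such reads is unknown, and their part in the unsteady splits was not tested.

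**Figure D3:**
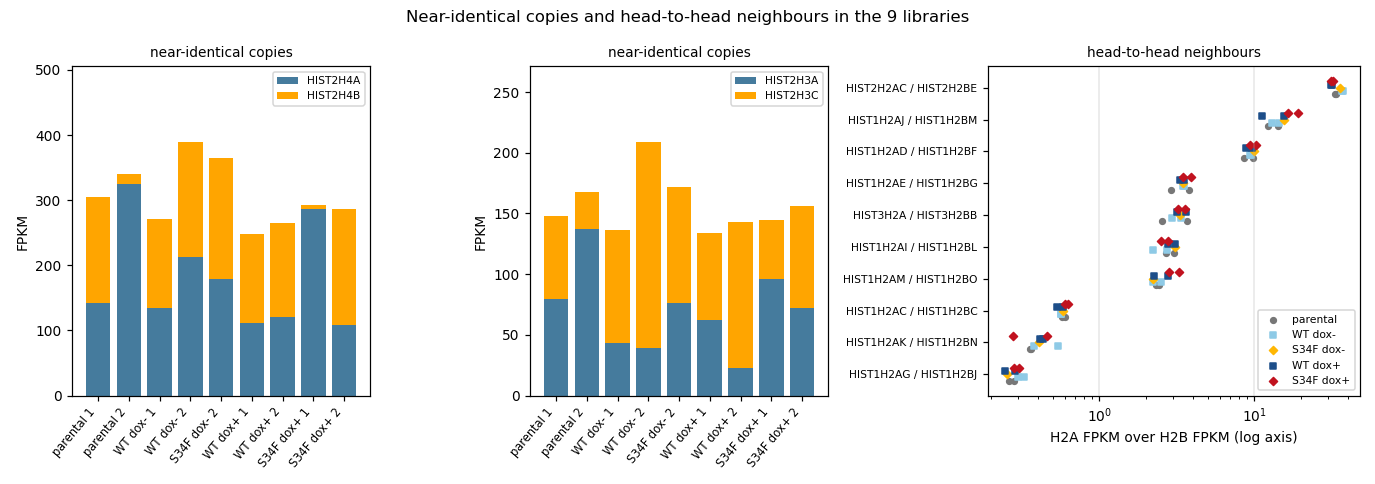
Left and middle, FPKM of HIST2H4A and HIST2H4B and of HIST2H3A and HIST2H3C stacked for each library. Right, FPKM of an H2A gene over that of its head-to-head H2B neighbour in each library, on a log axis, for 10 pairs. The stacked sums vary by about 1.57 and 1.55 times while the split between copies does not hold, and within a neighbour pair the ratio varies by 1.18 to 1.97 times.

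Cells with induced S34F were set against those with induced wild-type, S34F dox+ against WT dox+. The lines are different subclones, and U2AF1 was at 164 and 223 FPKM in S34F dox+ and 278 and 299 FPKM in WT dox+. S34F, subclone and the level of U2AF1 therefore cannot be told apart here. No member passed the test in limma-trend at an adjusted p under 0.05, with 6 of 63 at an unadjusted p under 0.05, where 0.0527% of all genes tested were called and 6.78% had an unadjusted p under 0.05. The WT dox+ libraries had a mean summed FPKM of 18203 ± 560 (SD, n = 2). The mean of the S34F dox+ libraries was 17810 ± 428 (SD, n = 2), a ratio of 0.978, with overlapping replicates. Of the 63 members 18 (28.6%) were higher by sign in S34F dox+, against 55% of all genes tested, and the median log2 fold change was -0.06 over members and 0.03 over all genes. With TPM the median of all genes was -0.07 and that of members -0.18.

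By cluster the signs differed. The summed log2 ratio of S34F dox+ to WT dox+ was -0.10 for HIST1 and 0.10 for HIST2 in FPKM, and -0.22 and -0.01 in TPM. The share of HIST2 in the summed FPKM does not depend on the scaling of a library and amounted to 25.7% and 24.7% in the WT dox+ replicates. In those of S34F dox+ it amounted to 28.2% and 27.2%. These did not overlap. The 5 uninduced libraries, at 25.8% to 28.3%, included both S34F dox+ values in their range and lay above both WT dox+ values, the nearest by less than 0.1 percentage points. No test was run on the shares.

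Not overlapping between the pairs of replicates were 9 members higher in S34F dox+ (14.3%) and 17 lower (27%), against 20.5% and 15.3% of all genes tested. The lower ones included HIST1H2AJ, HIST1H2BM, HIST1H2BO and HIST1H4C. Both genes of the head-to-head pair HIST1H2AJ and HIST1H2BM were among them, as were HIST1H2AG and HIST1H2BJ. Other such pairs did not all follow. HIST2H2AC and HIST2H2BE overlapped, as did HIST1H2AE and HIST1H2BG, and of HIST1H2AM and HIST1H2BO only the latter was lower. Any part of the octamer in this was not tested. HIST1H2AJ was at 1090 and 1200 FPKM in WT dox+ and 847 and 903 FPKM in S34F dox+, with a log2 fold change of -0.39 and an adjusted p of 0.728 in limma-trend. HIST1H2BM, chosen after its values were seen, was at 70.4 and 107 FPKM in WT dox+ and 44.4 and 54.5 FPKM in S34F dox+, with a log2 fold change of -0.81 and an adjusted p of 0.555. Both genes were lower in each S34F dox+ library than in each WT dox+ library, and neither passed the test.

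HIST3H2A and HIST3H2BB, the expressed genes of the HIST3 cluster, were on the higher side. HIST3H2A (ENSG00000181218.4) was at 252 and 297 FPKM in WT dox+ and at 401 and 382 FPKM in S34F dox+. HIST3H2BB (ENSG00000196890.3) was at 79.8 and 82.3 FPKM in WT dox+ and at 113 and 119 FPKM in S34F dox+. Each was about 1.43 times higher in the mean of S34F dox+ without overlap, yet the log2 fold changes of 0.52 ± 0.161 (SE) and 0.51 ± 0.146 (SE) had adjusted p of 0.593 and 0.555 in limma-trend. HIST1H3C, also chosen after its values were seen, was at 1.24 and 0 FPKM in WT dox+ and 11.0 and 15.9 FPKM in S34F dox+. It was also at 33.4 FPKM in S34F dox- and at 2.08 and 7.23 FPKM in WT dox-, and the adjusted p was 0.418.

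The effect of doxycycline was read from both transduced lines together, dox+ minus dox-. It combines induced U2AF1 with the drug itself, because no library of a line without a U2AF1 construct was labelled as given doxycycline. HIST3H2BB fell by 0.61 ± 0.116 (SE) on the log2 scale with an adjusted p of 0.0405 in limma-trend and was the only one of 63 members called, 1.59%, where 1.09% of all genes tested were called lower and 2.79% higher. At an unadjusted p under 0.05, 21 members (33.3%) were lower and 0 were higher, against 9.22% and 15.9% of all genes tested. This count of 21 changed with the library left out, and the share over all genes in those fits was not set beside it. Over those fits the median log2 fold change of the members ran from -0.41 to -0.16. With all 9 libraries it was -0.28, against 0.08 over all genes. The class medians lay between -0.32 for H3 and -0.23 for H1. By sign 0 of 63 members were higher, against 58.5% of all genes. In RNA from whole cultures, fewer cells in S phase and less histone mRNA per cell cannot be told apart.

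**Figure D4:**
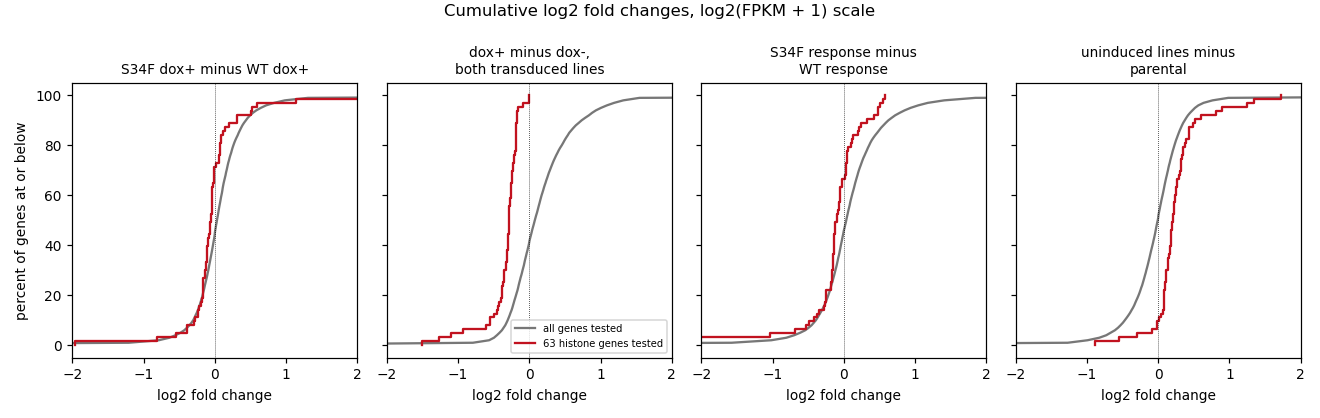
Cumulative percent of genes at or below each log2 fold change on the log2(FPKM + 1) scale, for the 63 histone genes tested and all 15179 genes tested, in 4 comparisons. Values beyond 2 in either direction are not drawn. In dox+ minus dox- the curve of the histone genes lies wholly below 0, with a median of -0.28 against 0.08 for all genes, and in the uninduced lines against parental it lies to the right, with a median of 0.20 against -0.01.

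The log2 ratio of summed FPKM of dox+ to dox-, averaged over both lines, was -0.30. That downward shift was smaller than the gap between the WT dox- replicates, whose median log2 difference over members was 0.50. Summed FPKM in WT dox+ was 0.825 times that in WT dox-, but 0.986 times that of WT dox- replicate 1 and 0.709 times that of replicate 2. The median log2 fold change over members was -0.16 without WT dox- replicate 2 and -0.41 without WT dox- replicate 1. In the S34F line the ratio of sums was 0.799, against a single S34F dox- library, and 60 of 63 members (95.2%) were lower in both S34F dox+ libraries than in it, against 28.7% of all genes. In the WT line 19 members (30.2%) were lower without overlap and 1, HIST1H2BE, was higher, against 20.8% and 28.9% of all genes. Over both lines 12 members (19%) had every dox+ library below every dox- library, and 0 the reverse, against 9.76% and 15.2% of all genes. The dox+ libraries also had more genes at 1 FPKM or above, as given above, and the part of this in the shift was not tested.

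HIST3H2BB was at 138 and 165 FPKM in WT dox-, 146 FPKM in S34F dox-, 79.8 and 82.3 FPKM in WT dox+ and 113 and 119 FPKM in S34F dox+. Every dox+ library was below every dox- library, but parental cells, at 117 and 90.8 FPKM, lay among the dox+ values. The call held in 6 of 18 alternatives, with adjusted p from 0.0222 to 0.147, and was lost when any 1 of the 8 libraries that could be left out was left out. HIST3H2A was at 405 and 552 FPKM in WT dox-, 485 FPKM in S34F dox-, 252 and 297 FPKM in WT dox+ and 401 and 382 FPKM in S34F dox+. It too had no dox+ library above a dox- library, with a log2 fold change of -0.55 ± 0.127 (SE) and an adjusted p of 0.0571.

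Other members at small adjusted p were picked after their values were seen, except HIST1H1E and HIST2H2BF, which are among the 5 highest of their classes. HIST1H1E, a linker histone, was at 628 and 750 FPKM in WT dox-, 631 FPKM in S34F dox-, 484 and 496 FPKM in WT dox+ and 484 and 488 FPKM in S34F dox+. Its dox+ libraries agreed closely and lay below all dox- libraries, with a log2 fold change of -0.43 and an adjusted p of 0.0534, while parental cells lay between, at 526 and 620 FPKM. HIST2H2BF, the leading H2B gene, was at 680 and 817 FPKM in WT dox-, 701 FPKM in S34F dox-, 540 and 523 FPKM in WT dox+ and 570 and 576 FPKM in S34F dox+. The groups did not overlap, and the adjusted p was 0.0650. HIST1H3A was at 42.3 and 53.1 FPKM in WT dox-, 37.2 FPKM in S34F dox-, 19.9 and 22.0 FPKM in WT dox+ and 15.6 and 31.7 FPKM in S34F dox+, with a log2 fold change of -0.93 and an adjusted p of 0.0673. HIST4H4 had a log2 fold change of -0.38 ± 0.234 (SE) with an adjusted p of 0.341.

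HIST1H1E, HIST3H2A, HIST1H3A and HIST2H2BF passed the threshold in 5, 4, 3 and 2 of 18 alternatives, among them protein-coding genes only and median-ratio scaling for all 4.

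Doxycycline responses of the lines were then set against each other. No member differed at an adjusted p under 0.05 in limma-trend, with 2 of 63 at an unadjusted p under 0.05, where 0.0264% of all genes tested were called and 3.42% had an unadjusted p under 0.05. Within each line no member was called in limma-trend, with 8 of 63 in the WT line and 5 of 63 in the S34F line at an unadjusted p under 0.05. All genes gave 0.0132% called and 14.4% at that unadjusted p in the WT line, and 0.283% and 15.8% in the S34F line. HIST3H2BB had a log2 fold change of -0.88 in the WT line and -0.34 in the S34F line, at adjusted p of 0.105 and 0.399. In the WT line it passed the threshold in 1 of 19 alternatives, protein-coding genes only, at an adjusted p of 0.0470, with a range of 0.0470 to 0.532 over them. For HIST3H2A these were -0.79 and -0.31, at adjusted p of 0.146 and 0.475. For the difference of the responses, HIST3H2BB had 0.55 ± 0.231 (SE) with an unadjusted p of 0.0467 and HIST3H2A had 0.48 ± 0.254 (SE) with 0.0972, and the adjusted p of both was 1.0. The other member at an unadjusted p under 0.05, HIST1H2BE, named after its values were seen, was at 0 and 1.39 FPKM in WT dox- and 7.40 FPKM in S34F dox-, and between 1.24 and 2.95 FPKM in the dox+ libraries. The median difference was -0.10 over members and 0.03 over all genes, and -0.25 and -0.11 with TPM. Over members it was 0.15 without WT dox- replicate 1 and -0.31 without WT dox- replicate 2.

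Relative to the other histone genes the HIST3 cluster fell into separate levels. It made up 2.79% to 2.95% of the summed FPKM in the 3 uninduced libraries of transduced lines, 2.84% and 2.87% in S34F dox+, 1.87% and 2.04% in WT dox+, and 2.34% and 2.02% in parental cells. The S34F dox+ libraries lay with the uninduced lines and the WT dox+ libraries lay with one of the parental libraries. These are shares of a sum and carry no test. Without HIST3H3, which was below 1.3 FPKM in every library, they rest on the 2 neighbours.

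**Figure D5:**
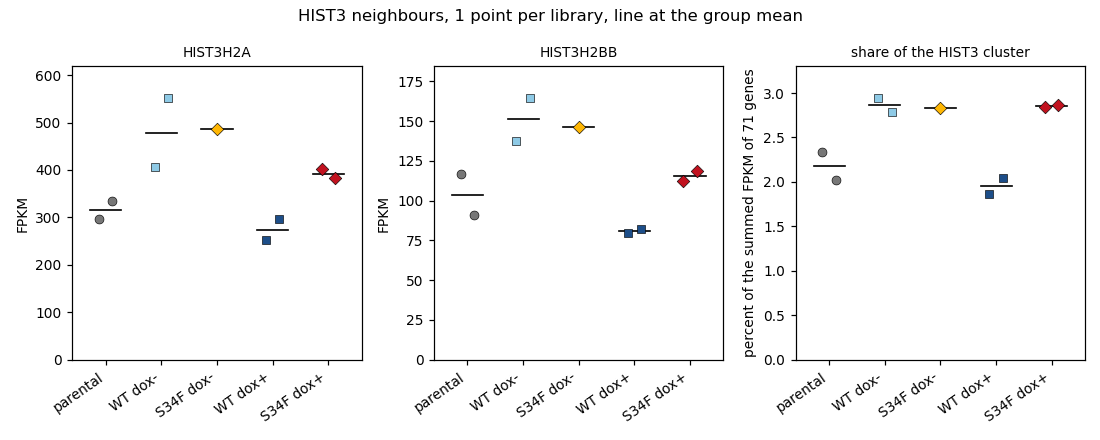
FPKM of HIST3H2A and HIST3H2BB, and the share of the HIST3 cluster in the summed FPKM of all 71 genes in percent, 1 point per library by group with a line at the group mean. Both genes are lowest in WT dox+, at 252 and 297 FPKM for HIST3H2A, and the share is 1.87% to 2.34% in WT dox+ and parental cells and 2.79% to 2.95% in the other libraries.

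Uninduced transduced lines were also compared with parental HCC78. If the parental cells were given doxycycline, as the supplement has it, this comparison also differs in the drug, and the line and the drug cannot be told apart. No member passed the test in limma-trend, where at an unadjusted p under 0.05 there were 9 of 63 higher and 0 lower, and 0.244% of all genes tested were called, while at that unadjusted p 6.21% of them were higher and 6.86% were lower. Of the 63, 57 (90.5%) were higher by sign, against 48.4% of all genes, and the median log2 fold change was 0.20 against -0.01, or 0.32 against 0.09 with TPM. Sums were 1.14 times the parental mean in WT dox- and 1.15 times in S34F dox-, but WT dox- replicate 1, at 18462 FPKM, lay below parental replicate 2, at 21003 FPKM. The median was 0.08 without WT dox- replicate 2 and 0.32 without parental replicate 2. Not overlapping were 12 members higher (19%) and 1 lower (1.59%), against 16.1% and 17.1% of all genes. The lower one was HIST2H3A and its copy HIST2H3C was among the higher ones, while the sum of the pair overlapped, at 148 and 168 FPKM in parental cells, 136 and 209 FPKM in WT dox- and 172 FPKM in S34F dox-.

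HIST3H2A, at 297 and 334 FPKM in parental cells and at 405 to 552 FPKM in the uninduced lines, had a log2 fold change of 0.60 and an adjusted p of 0.167. HIST3H2BB had 0.52 and 0.181, and HIST1H1A 0.89 and 0.201. All of these were higher in each uninduced line library than in both parental libraries.

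The machinery that makes and trims histone mRNA ranged widely in level and none of it was called. Of 31 tested genes of transcription and 3' end processing, 8 were higher and 23 lower by sign in dox+ minus dox-, with 3 and 12 at an unadjusted p under 0.05 and a median of -0.13. Of all genes tested, 58.5% were higher by sign, and at that unadjusted p 15.9% were higher and 9.22% lower. SLBP, which binds the stem-loop, was at 182 and 179 FPKM in parental cells, 197 and 182 FPKM in WT dox-, 184 FPKM in S34F dox-, 146 and 170 FPKM in WT dox+ and 158 and 152 FPKM in S34F dox+, with an adjusted p of 0.123. NPAT was between 18.4 and 27.2 FPKM and its partner CASP8AP2 between 15.8 and 22.2 FPKM, with log2 fold changes of 0.25 and -0.01. Of the U7 snRNP genes, LSM10 was between 4.27 and 10.3 FPKM and LSM11 between 1.97 and 2.75 FPKM. RNU7-1, the gene of U7 snRNA, was listed at 0 in all 9 libraries, which was not read as absence of the RNA. ZNF473 and the exonuclease gene ERI1 had log2 fold changes of -0.11 and -0.02.

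Replication-independent histones, made also outside S phase and mostly polyadenylated, had 9 of 11 tested genes lower by sign in dox+ minus dox-. H2AFX was called lower, where 58.5% of all genes tested were higher by sign and 1.09% were called lower. H2AFX, which is phosphorylated at DNA breaks and has both mRNA forms, was at 84.4 and 108 FPKM in parental cells and 180 and 193 FPKM in WT dox-. It was at 163 FPKM in S34F dox-, 117 and 127 FPKM in WT dox+, and 111 and 128 FPKM in S34F dox+. It fell by 0.53 on the log2 scale with an adjusted p of 0.0488, a call that held in 5 of 18 alternatives. H2AFZ, the H2A.Z variant, had a log2 fold change of -0.29 and an adjusted p of 0.0627. H3F3A, H3F3B, H1F0, H1FX and the centromeric CENPA had log2 fold changes from -0.47 to -0.13 and none was called.

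Genes of DNA replication and S phase were 40 of 46 lower by sign in dox+ minus dox- and those of G2 and mitosis 23 of 30, with medians of -0.18 and -0.25 beside the -0.28 of the histone genes. TIPIN was called lower of the former, and AURKA and CDC20 of the latter. At an unadjusted p under 0.05 in limma-trend, 0 of the former were higher and 15 lower. Of the latter 2, MKI67 and CENPF, were higher and 18 lower. These counts stand against 15.9% higher and 9.22% lower of all genes tested. Of 25 histone chaperone genes 19 were lower by sign, and NPM1 and SSRP1 were called lower. Of all genes tested, 58.5% were higher by sign in dox+ minus dox- and 1.09% were called lower, with a median of 0.08. Summed FPKM of the S phase list was 2828 and 3156 in WT dox- replicates 1 and 2, and that of the G2 and mitosis list was 3364 and 2956. Replicate 2, in which histone sums were higher, was thus higher in the former and lower in the latter. Other groups did not all follow this. From replicate 1 to 2 the S phase list went from 2817 to 2778 in parental cells, where histone sums rose. It went from 2495 to 2621 in S34F dox+, where histone sums fell, and from 2682 to 2842 in WT dox+, where they rose. In S34F dox+ against WT dox+ 33 of the 46 and 27 of the 30 were lower by sign, and 39 and 29 were higher in the uninduced lines than in parental cells, with ANLN called. Of all genes tested, 55% were higher by sign in S34F dox+ than in WT dox+. In the uninduced lines against parental cells 48.4% were higher by sign and 0.244% were called. The part of the cell cycle in the histone levels was not tested.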

How the data were processed

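Total RNA from 9 libraries was sequenced by the authors. Their deposited table gives FPKM and TPM per gene, made with STAR 2.3.0 and RSEM 1.2.29, which divides reads between similar transcripts by estimate, on GRCh37/hg19 per the submitters' notes. The authors also deposited MISO tables of their own S34F against wild-type comparison, with splicing levels, differences and Bayes factors. These were not used here, because the tables do not name their sides, so the planned listing of histone gene events is not given. Gene counts were not used here, so depth and counting error are unknown. The samples of iCLIP were not used here.

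Genes averaging 1 FPKM or more across all 9 libraries were compared as log2(FPKM + 1), a scale that understates changes of low genes, with limma 3.58.1 (limma-trend) in R 4.3.3. The 5 groups shared 1 estimate of the spread, without covariates, and p-values were two-sided with Benjamini-Hochberg adjustment over all genes tested (threshold 0.05). S34F dox- was 1 library, whose spread was taken from the other groups. Sums, shares and ratios were computed in Python 3.11.15 with pandas 2.3.3 and carry no test. The fit was tested on simulated data. Promoters came from RefSeq on GRCh38.p14 by symbol, a build used for sequence only.

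The members and gene lists were chosen with earlier results of these data known. Genes named by rule were the 5 highest in each class, all of HIST3 and HIST4, up to 10 called members per comparison, and set genes of the lists with up to 3 of smallest p. Other genes were named after their values were seen, such as members with large or unstable values, head-to-head or copy pairs, and the members that do not overlap. Alternatives were other pseudocounts, minimums, TPM, median-ratio and quantile scaling, protein-coding genes only, a replicate block, only the groups compared, and each library left out.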

Additional observations from a re-analysis of the deposited data

How the results depend on the processing

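In dox+ minus dox- the count of histone genes called in limma, 1 as reported, changed with the settings and all calls were lower in dox+. It was 2 with a pseudocount of 0.1, 3 with a minimum mean of 5 FPKM, 3 with TPM, 5 with median-ratio scaling and 5 with protein-coding genes only. It was 0 with no minimum, with quantile normalization and with only the groups compared. The share of all genes called under each setting is not given beside these counts. A change in them is therefore not read as a result about the histone genes. Leaving out 1 library gave 0 to 1, the 1 being HIST1H3A without S34F dox+ replicate 2, at an adjusted p of 0.0483 (0.0352 to 0.200 over its alternatives). Without S34F dox- this comparison could not be made. S34F dox+ against WT dox+, the difference of the responses and the uninduced lines against parental gave 0 called histone genes under every alternative run. In the WT line alone, 1 was called with protein-coding genes only, HIST3H2BB at an adjusted p of 0.0470 (0.0470 to 0.532 over its alternatives). The log2 ratio of summed FPKM of dox+ to dox-, -0.30 as reported, was -0.41 to -0.17 with 1 library left out. Over 24 results for single genes, all 438 values under alternatives kept their direction, with 17 newly past the threshold and 28 no longer past it. The causes were not tested. The alternatives planned for MISO events were not run.

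With the replicate number as a block, 0 histone genes were called in dox+ minus dox-, and their median log2 fold change was -0.24. At an unadjusted p under 0.05 there were 17, a count not set beside that of all genes. Same-numbered libraries did not deviate together, with correlations from -0.08 to 0.04 between groups, so the numbers were not read as a pairing.

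With 1 or 2 libraries per group and no read numbers, small differences could not be separated from the spread. Levels of near-identical copies can depend on how RSEM divided reads. The adjusted p of HIST3H2BB ranged from 0.0222 to 0.147 over its alternatives.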

Other observations

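Of the 18 histone entries of other gene types, 6 had a mean of at least 1 FPKM. The highest was HIST2H2BA, annotated as a pseudogene of H2B, with a mean of 15.4 FPKM. It was at 8.34 and 26.2 FPKM in the WT dox- replicates, so its replicates differed more than its groups. HIST2H2BB followed with a mean of 12.2 FPKM.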
